A study of Branchiostoma lanceolatum with 8 samples.

Results

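Explants of ectoderm, the outer germ layer, from the amphioxus Branchiostoma lanceolatum, an invertebrate chordate, were compared after Activin treatment and without it at 11 hours post fertilization (hpf). The comparison takes in every row of the authors' deposited table for that time, 15793 genes out of 18998 identifiers listed at 11 or 19 hpf. The treated explants (activin_11hpf) received human recombinant Activin at 50 ng/mL and gave 2 libraries. The control explants (control_11hpf) carried only the label Control and also gave 2 libraries. Both were poly(A)-selected RNA from frozen explants, and explants of several fertilizations were mixed within each replicate, so an individual embryo is not a unit here. No strain or genotype was given in the labels. Values per library were not used here, because the table holds only the comparison between treatments.

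Activin is a ligand of the TGF-beta family. It binds the same receptor kinases as Nodal, which phosphorylate SMAD2 and SMAD3, and these enter the nucleus with SMAD4 and switch on target genes, among them feedback inhibitors of the pathway. In vertebrates, isolated ectoderm left alone forms epidermis under the influence of BMP ligands, while Activin makes it form mesoderm and endoderm, and BMP antagonists such as Chordin let it become neural.

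Each log2 fold change of Activin over control was taken from the authors' deposited table, with its standard error after ± and its adjusted p-value. A gene is said to have risen or fallen where the authors' Wald test with Benjamini-Hochberg adjustment gave an adjusted p below 0.05, two-sided. The headers do not name the numerator. The sign was fixed by LEFTY2, CHRD and GSC, which Nodal and Activin switch on in vertebrates and whose values were positive, so positive means higher in Activin and these genes cannot test that reading. Treatment means in normalized counts were rebuilt from the mean over all libraries and the fold change. They are not divided by gene length, and the values of a gene are compared between treatments. Where rows are ranked by counts or their shares of counts are given, gene length enters as well. Where a mean fell below 3 normalized counts, the log2 fold change has no readable size and the means alone are given. Whether a transcript changed per cell, or the cells carrying it changed in number, cannot be told apart in RNA from whole explants.

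The control explants carried transcripts of the labelled layer. KRT8 (BL15060), a keratin of simple epithelia, had a mean of 4415 in Activin explants against 257288 in control explants, and the ectodermal regulators TFAP2D (BL23731) and GATA2 (BL18478) had control means of 18797 and 13445. Transcripts of genes known from mesoderm and endoderm were present as well. Brachyury, T (BL23557), the mesodermal T-box gene, had 594 in Activin explants and 567 in control explants, and was not called. Of 4 genes known from endoderm, FOXA1 (BL01658), a regulator of gut endoderm, rose, with 545 in Activin explants and 202 in control explants, and HHEX (BL21396) fell, with 6.5 in Activin explants and 42.7 in control explants. FOXA2 (BL10935) had 46.1 in Activin explants and 24.5 in control explants and GATA4 (BL08554) had 17.8 in Activin explants and 20.7 in control explants, neither of them called. MYOD1 (BL15168), the muscle determination factor, had 6.74 in Activin explants and 15.2 in control explants and was not called. Their part in the differences below was not tested.

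At 11 hpf, 36.6% of all rows were called different, 5773 of 15793. Of all rows 12.0% were called higher in Activin explants, 1893 genes, and 24.6% lower, 3880 genes, so that 67.2% of calls were falls. The median log2 fold change over all rows was 0.07. As deposited, the falls were also deeper. The median called fall was -3.57 on the log2 scale, or -3.13 with means under 3 counts set to 3, and the median called rise was 1.92. Total-count scaling, described below, subtracts -0.98 from each log2 fold change, which makes falls shallower and rises greater. Which of these medians is the larger in size therefore depends on the scaling. A change of at least 16-fold was reached by 1604 of the genes that fell (41.3%) and by 148 of those that rose (7.82%). These counts take in rows whose lower mean was under 3 counts, where a fold has no readable size. Such rows made up 723 of all called falls (18.6%) and 87 of all called rises (4.6%).

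**Figure D1:**
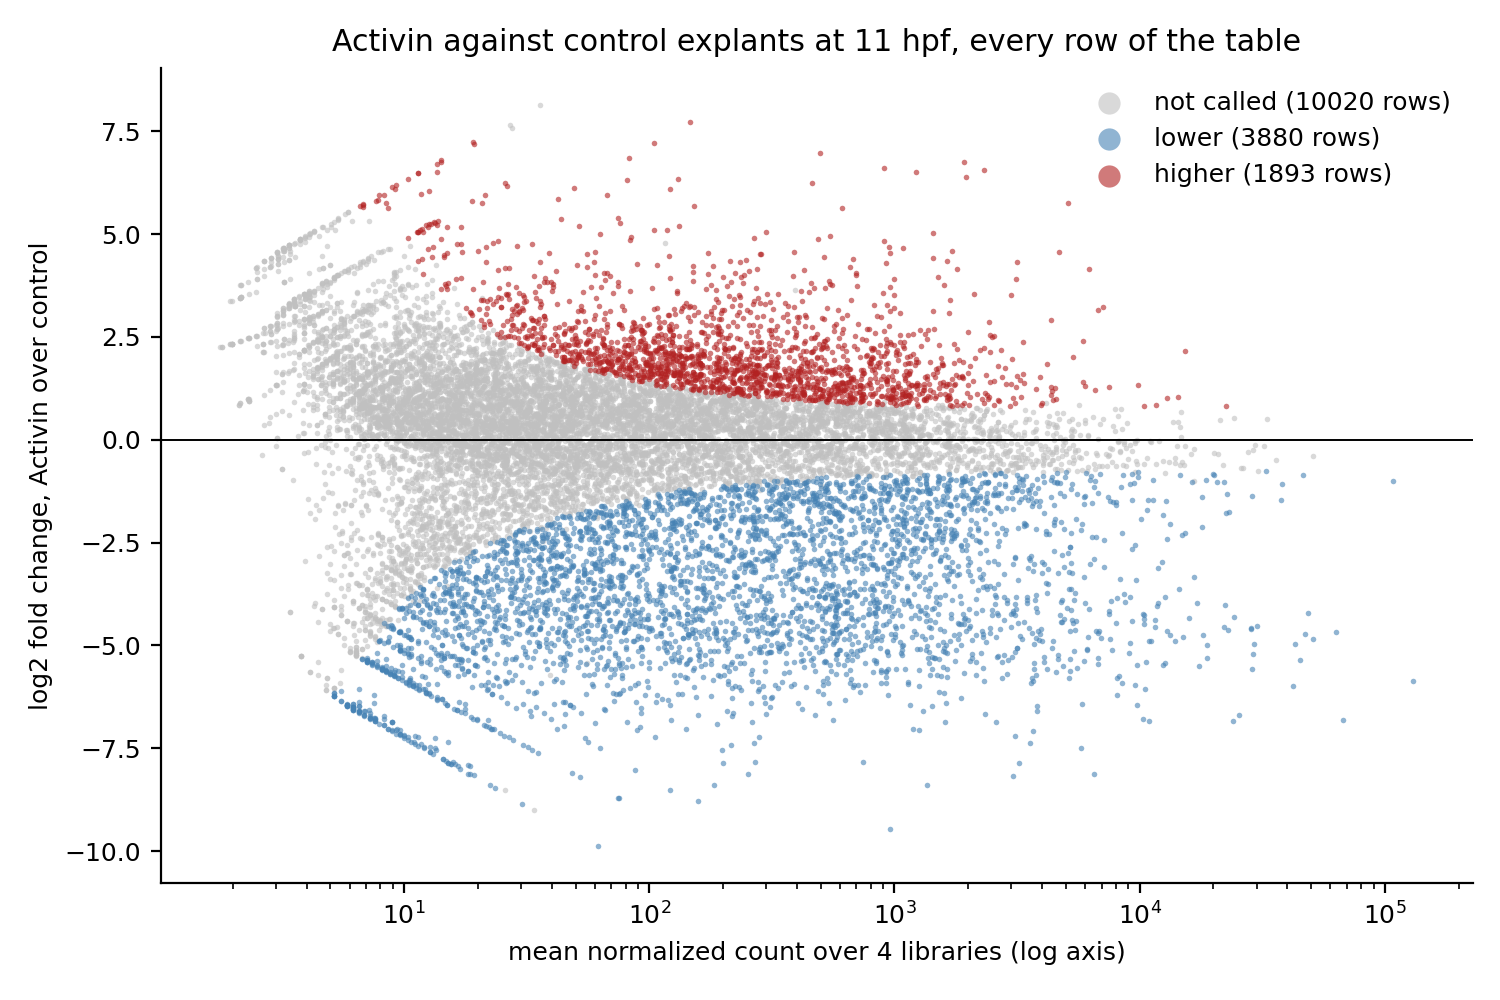
Log2 fold change (Activin over control, y axis) against the mean normalized count over the 4 libraries (log axis) for each of the 15793 rows at 11 hpf, with the 1893 rows called higher in red, the 3880 called lower in blue and the rest in grey. The blue points reach further from 0 than the red ones, and red points thin out at the highest counts.

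The split between rises and falls depended on how the treatments were scaled to each other. The rebuilt means summed to 6165290 normalized counts for Activin and 12126800 for control, a ratio of 0.508. Falls made up 60.1% of calls when the median of rows with a mean of at least 100 counts was set to 0, which subtracts -0.20 from each log2 fold change, and 78.0% when the median of cytosolic ribosomal protein genes was set to 0 (0.34 subtracted). They made up 51.7% of calls under upper-quartile scaling (-0.44 subtracted) and 35.2% under total-count scaling (-0.98 subtracted). For a fixed set of rows, the share of counts within 1 treatment does not depend on this choice. Setting the shares of both treatments side by side, however, amounts to total-count scaling, the scaling with the smallest share of falls here. The shares of counts given below are therefore no check on direction that is free of scaling. The called sets below are those of the deposited scaling, and their membership does depend on it. The genes called lower held 20.9% of all normalized counts in Activin explants and 67.1% in control explants. The genes called higher held 24.6% in Activin explants and 3.94% in control explants, and the genes not called held 54.5% in Activin explants and 29.0% in control explants. Both called sets were chosen by this same contrast, so their shares are a description.

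**Figure D2:**
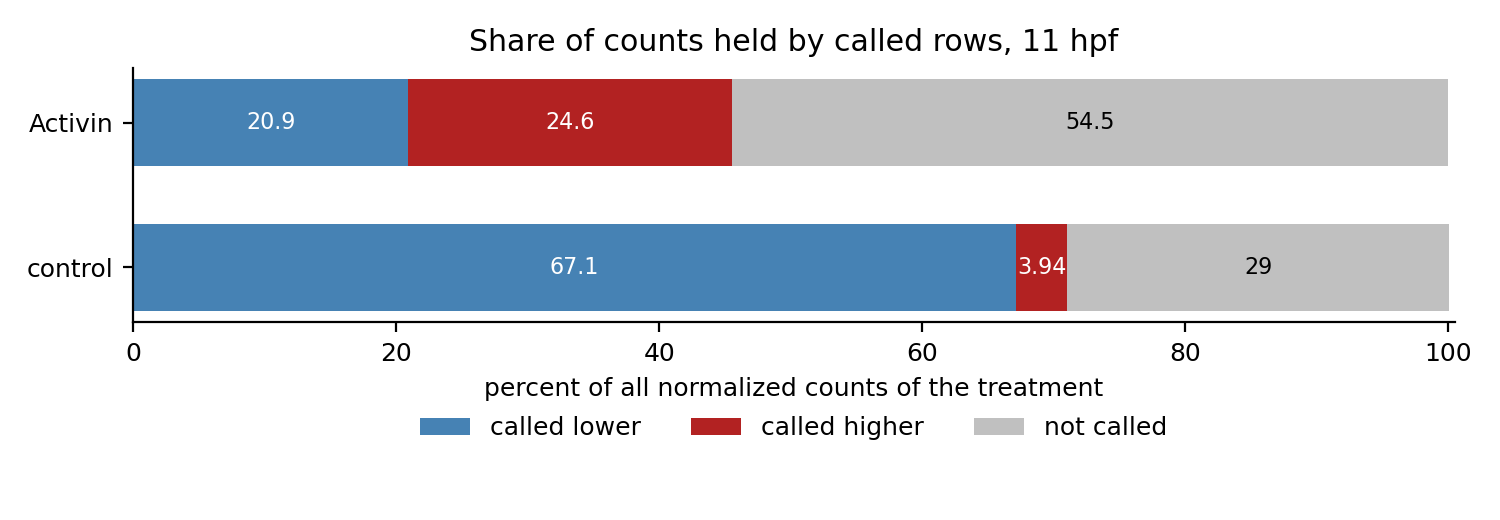
Percent of all normalized counts of a treatment (x axis) that belonged to rows called lower (blue), called higher (red) or not called (grey), for Activin above and control below. The rows called lower held 20.9% of the Activin counts and 67.1% of the control counts.

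Rows picked for many control counts lean towards falls by that choice, and rows picked for many Activin counts towards rises, so their calls are a description. Of the 100 rows with the most control counts, which held 32.4% of them, 81 fell and 0 rose, whereas of the 100 rows with the most Activin counts, which held 24.1% of those, 19 rose and 18 fell. All 10 of the rows with the most control counts fell. Beside KRT8 they included KRT36 (BL22645), a second keratin, at 1204 in Activin explants against 134149 in control explants, and MUC4 (BL11100), a mucin of secreted or membrane mucus, at 4732 in Activin explants against 121510.2 in control explants. Enzymes that make nucleotide sugars for glycans were among them, TSTA3 (BL00597), GDP-fucose synthase, at 3420.1 in Activin explants against 98168 in control explants, and UXS1 (BL95282), UDP-xylose synthase, at 2161 in Activin explants against 88237 in control explants. So was ESRP1 (BL17279), a splicing regulator of epithelial cells, at 1308 in Activin explants against 83461 in control explants. H3F3A (BL23619), a replacement histone, fell less, with 71574 in Activin explants against 143785 in control explants. In Activin explants the row with the most counts among those that rose was KHDRBS3 (BL06778), an RNA-binding splicing regulator, at 28626 in Activin explants against 16309 in control explants. The rows in this paragraph beyond the keratins, the histone and KHDRBS3 were picked by their rank in counts after the values were seen.

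The share of rows called grew with the mean count. It was 12.0% from 5 to 10 normalized counts, 24.5% from 20 to 50, 51.2% from 100 to 500 and 63.2% at 5000 or more, where 182 of 315 rows fell and 17 rose. Depth per library is unknown from this table, and precision is read from the standard errors, whose median was 0.70 and whose lowest value was 0.32. Rows with a gene symbol were called in 37.3% of cases, with 1496 higher and 2495 lower of 10694. Rows with a Hypp label, gene models that carry no symbol, were called in 40.4%, with 203 higher and 763 lower of 2390. Rows with no label at all were called in 27.9%, with 112 higher and 489 lower of 2152.

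Symbols were sorted into 75 families under 12 themes, which took in 4962 rows, of which 694 rose and 1183 fell. Each family count below stands beside 12.0% higher and 24.6% lower over all rows. Falls outnumbered rises in 44 families. In 7 families as many rows rose as fell. Of the others, 29 kept their larger side under all 4 scalings, 3 had equal sides under at least 1, and 36 turned under at least 1. Where a larger side turned or was lost, the scaling is named beside the count. Elsewhere the words under every scaling mean that the larger side stayed the larger one, while the counts themselves moved.

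**Figure D3:**
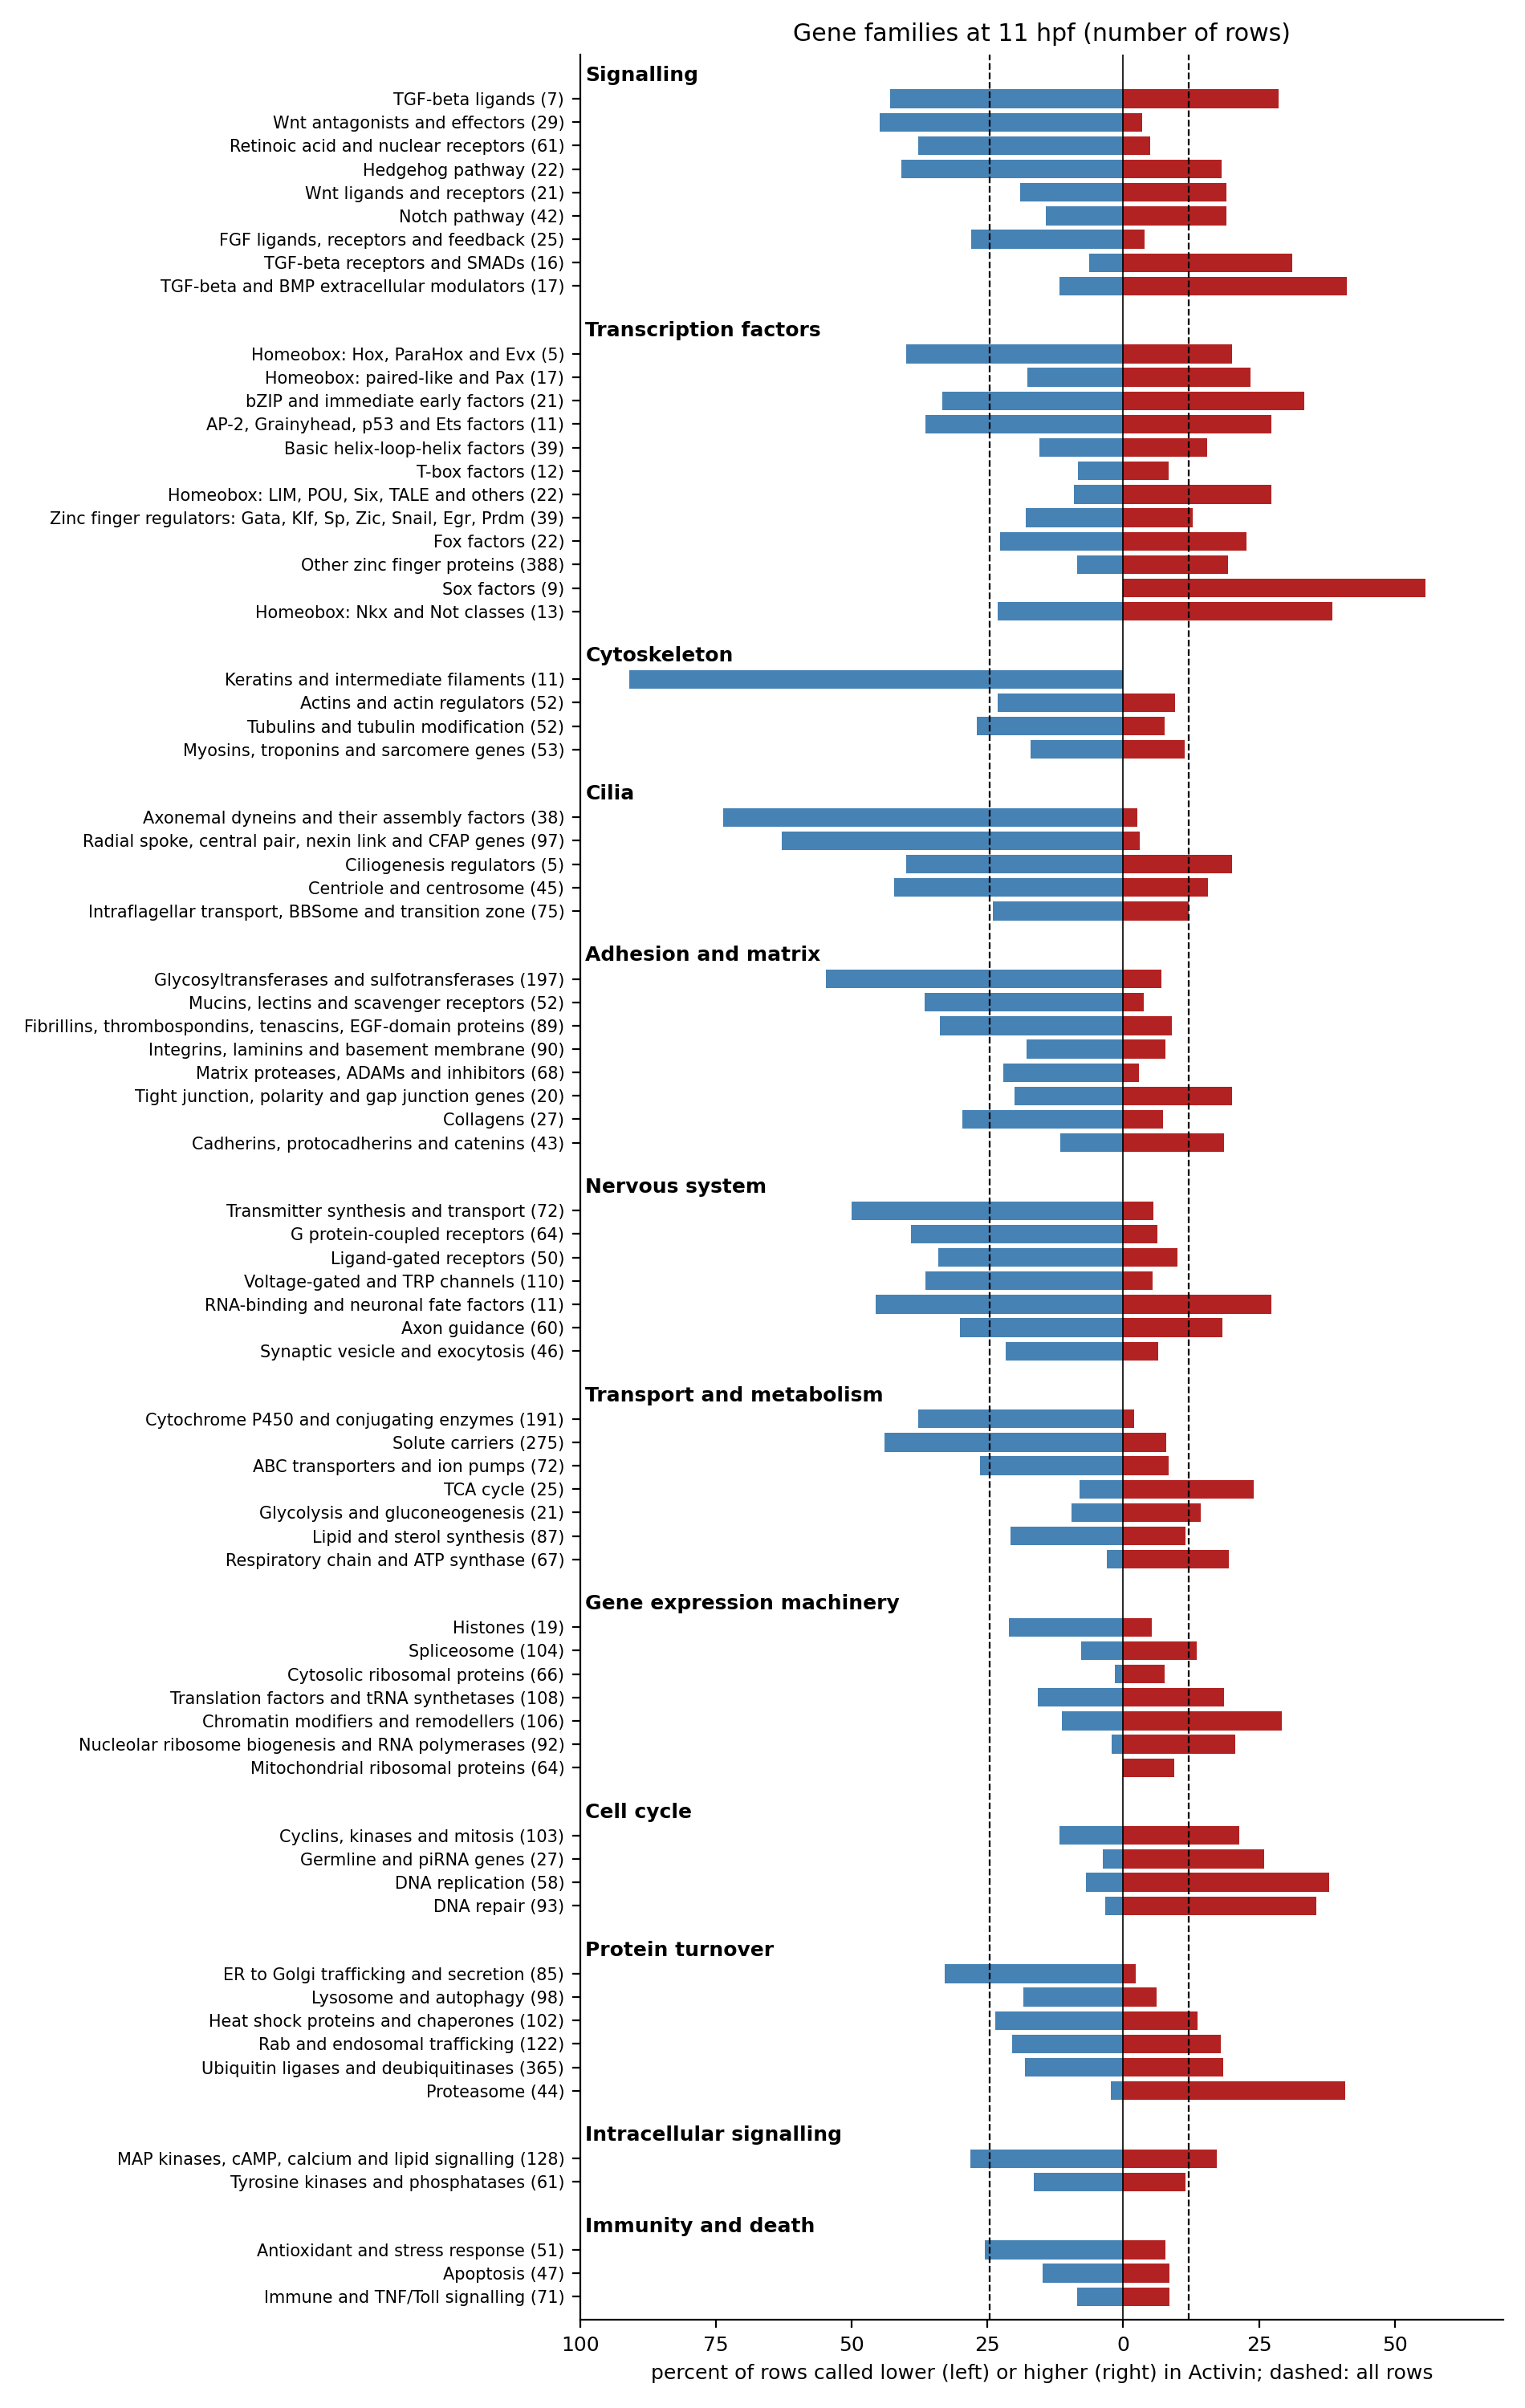
Percent of the rows of each gene family shown that were called lower (blue, to the left of 0) or higher (red, to the right) in Activin explants, with the number of rows in brackets and the shares over all rows, 24.6% lower and 12.0% higher, as dashed lines. Keratins, axonemal dyneins, radial spoke genes and glycosyltransferases reach furthest left. Sox factors, TGF-beta modulators, proteasome, Nkx-class homeobox, DNA replication and DNA repair genes reach furthest right.

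Among TGF-beta ligands 2 of 7 rows rose and 3 fell, and the falls were no longer the larger side under total-count, upper-quartile or median scaling. LEFTY2 (BL04376), a secreted antagonist of Nodal, had a mean of 3888 in Activin explants against 46.4 in control explants. The BMP2 rows went opposite ways: BMP2 (BL21413) had 115 in Activin explants against 4.83 in control explants, a log2 fold change of 4.57 ± 0.96 in the authors' deposited table, while BMP2 (BL12966) had 134 in Activin explants against 511 in control explants (-1.93 ± 0.44 in the same table). BMP4 (BL07330) and BMP7 (BL11844), further BMP ligands, fell to 39.4 and 84.5 in Activin explants, against 120.1 and 214 in control explants. These 5 rows were all that was called in the family.

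Receptors and SMADs mostly rose where they were called, 5 higher and 1 lower of 16, in the same direction under every scaling. SKI (BL02854), a co-repressor that binds SMADs, had 2782 in Activin explants against 85.7 in control explants. CFC1 (BL07225), a Nodal co-receptor, had 559 in Activin explants against 47.7 in control explants, and SMAD6 (BL20907), an inhibitory SMAD, had 213 in Activin explants against 36.3 in control explants. The other 2 rises, named after their values were seen, were the receptor kinase ACVR1 (BL21996), at 2999 in Activin explants against 976 in control explants, and the signal transducer SMAD3 (BL21635), at 456 in Activin explants against 136 in control explants. BAMBI (BL06201), a pseudoreceptor that dampens BMP and Activin signals, was the 1 fall, with 36.2 in Activin explants against 429.5 in control explants. Of 17 extracellular modulators 7 rose and 2 fell, more rises under every scaling, and their share of counts was 0.135% in Activin and 0.0116% in control explants. SMOC1 (BL22030), a secreted modulator of BMP signals, had 2428 in Activin explants against 26.8 in control explants, which is 6.50 ± 0.48 in the authors' deposited table. CHRD (BL24510), Chordin, had 3281 in Activin explants against 137 in control explants. The tolloid-like proteases, which cleave Chordin, went opposite ways: TLL2 (BL08845) had 106 in Activin explants against 5.72 in control explants and TLL1 (BL19184) had 37.8 in Activin explants against 200.2 in control explants.

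Wnt antagonists and effectors fell in 13 of 29 rows with 1 rise, and falls were the larger side under every scaling. Of 21 Wnt ligand and receptor rows 4 rose and 4 fell, which came to 6 and 1 under upper-quartile, 8 and 1 under total-count and 3 and 5 under ribosomal protein scaling. The receptor FZD10 (BL23542) had 1859 in Activin explants against 453 in control explants and the co-receptor LRP6 (BL17684) had 2455 in Activin explants against 673 in control explants, against falls of the receptor FZD5 (BL13381) to 1816 in Activin explants against 8682 in control explants and of the ligand WNT11 (BL18893) to 132 in Activin explants against 423 in control explants. Among the effectors, PRICKLE1 (BL10541), a planar polarity protein, fell to 433 in Activin explants against 19139 in control explants. KREMEN1 (BL21939), a receptor of the Dickkopf antagonists, fell to 492 in Activin explants against 20703 in control explants, and NOTUM (BL06981), an enzyme that inactivates Wnt ligands, to 6.94 in Activin explants against 283 in control explants. The 1 rise was DAAM2 (BL11566), a formin downstream of Wnt, at 2505 in Activin explants against 389 in control explants.

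Of 25 FGF pathway rows 7 fell, a share near the 24.6% of all rows, and 1 rose. The family median was 0.36, and the falls and rises came to 6 and 6 under upper-quartile and 5 and 7 under total-count scaling. The falls were led by the rows named for receptors. FGFR3 (BL14111) had 8.9 in Activin explants against 515 in control explants, FGFR2 (BL01899) had 10.4 in Activin explants against 295 in control explants and FGFR1 (BL15501) had 332 in Activin explants against 3261 in control explants. DUSP10 (BL23096), a phosphatase that acts on MAP kinases, was the 1 rise, with 829 in Activin explants against 369 in control explants. In the Hedgehog pathway 4 of 22 rows rose and 9 fell, a balance that total-count scaling turned. The transcription factor GLI2 (BL15145) had 1526 in Activin explants against 342 in control explants and its inhibitor SUFU (BL07686) had 562 in Activin explants against 189.5 in control explants, both higher. SCUBE1 (BL96864), a secreted protein that helps release Hedgehog in vertebrates, fell to 13.6 in Activin explants against 693 in control explants, and HHAT (BL20019), the enzyme that attaches palmitate to Hedgehog, fell to 32.1 in Activin explants against 559.5 in control explants.

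In the Notch pathway 8 of 42 rows rose and 6 fell, and the falls became the larger side under ribosomal protein scaling. Rows named for Notch receptors led the falls. NOTCH1 (BL03594) had 118 in Activin explants against 7106 in control explants, at -5.91 ± 0.37 in the authors' deposited table, NOTCH4 (BL12762) had 335 in Activin explants against 13246 in control explants and NOTCH1 (BL19631) had 87.9 in Activin explants against 417 in control explants. The rises were led by MIB2 (BL12196), a ubiquitin ligase that activates Notch ligands, at 238 in Activin explants against 57.6 in control explants, MFNG (BL20800), a Fringe glycosyltransferase, at 688 in Activin explants against 177 in control explants, and APH1A (BL03412), a subunit of gamma-secretase, at 193 in Activin explants against 62.2 in control explants. Genes of retinoic acid metabolism and nuclear receptors fell in 23 of 61 rows and rose in 3, under every scaling. Both RARB rows, named for the retinoic acid receptor, rose: RARB (BL10401) had 1281 in Activin explants against 329.7 in control explants and RARB (BL08608) had 185 in Activin explants against 43.4 in control explants. DHRS7 (BL17440), a dehydrogenase/reductase, fell to 16.6 in Activin explants against 598 in control explants and the orphan nuclear receptor NR6A1 (BL04905) to 2073 in Activin explants against 32316 in control explants. RDH10 (BL20098), a retinol dehydrogenase, had 2.87 in Activin explants and 151 in control explants, with the Activin mean under the floor.

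Transcription factor families differed in their balance. Sox factors rose in 5 of 9 rows and fell in 0, a median log2 fold change of 1.38, under every scaling, and their share of counts was 0.433% in Activin and 0.103% in control explants. SOX4 (BL06291) had 1782 in Activin explants against 137 in control explants and SOX14 (BL18089) had 473 in Activin explants against 115 in control explants. All 3 rows named SOX2, a neural and progenitor factor in vertebrates, rose, to 13229 (BL16399), 10601 (BL16400) and 105 (BL03503) in Activin explants, against 7531, 4341 and 13.8 in control explants. Nkx-class homeobox rows rose in 5 and fell in 3 of 13. NKX6-2 (BL21899), a factor of ventral neural tube in vertebrates, had 519 in Activin explants against 29.4 in control explants, EMX1 (BL04895), a forebrain factor, had 341 in Activin explants against 32 in control explants, and DLX1 (BL02953), of the Distal-less class, fell to 5004 in Activin explants against 24845 in control explants. NKX2-1 (BL15126), a forebrain and thyroid factor in vertebrates, had 160.1 in Activin explants and 2.01 in control explants, a control mean under the floor. Its standard error was 2.58, against a median of 0.68 for rows from 50 to 100 counts. The adjusted p in the authors' Wald test was 0.041.

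Paired-like and Pax rows rose in 4 and fell in 3 of 17, a balance that ribosomal protein scaling turned. OTX2 (BL18685), a head and brain regulator, had 3065 in Activin explants against 292 in control explants, at 3.39 ± 0.47 in the authors' deposited table, and GSC (BL18678), Goosecoid, had 367 in Activin explants against 53.9 in control explants. RAX (BL19810), an eye and forebrain factor in vertebrates, fell to 26.6 in Activin explants against 2583 in control explants, and PAX2 (BL04904) to 445 in Activin explants against 2362 in control explants. Among LIM, POU, sine oculis and TALE class rows 6 rose and 2 fell of 22, which came to 4 and 4 under ribosomal protein scaling, with ZEB2 (BL16274) at 289 in Activin explants against 88.8 in control explants, PKNOX2 (BL03465) at 1118 in Activin explants against 348 in control explants, and falls of SIX3 (BL08388), an anterior regulator, to 885 in Activin explants against 8383 in control explants and of IRX6 (BL95664) to 1087 in Activin explants against 2920.1 in control explants. Hox, ParaHox and Evx rows numbered 5. A Cdx row rose, CDX4 (BL11561) at 1950.2 in Activin explants against 497 in control explants, the other fell, CDX4 (BL12756) at 79.3 in Activin explants against 380.0 in control explants, and EVX2 (BL08778), an even-skipped factor, fell to 9.38 in Activin explants against 173 in control explants. HOXC4 (BL14546) had 33.7 in Activin explants and 13.4 in control explants and was not called.

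Of 39 basic helix-loop-helix rows 6 rose and 6 fell, and no scaling kept these equal: total-count scaling gave 15 higher and 2 lower and ribosomal protein scaling 4 higher and 7 lower. NEUROG3 (BL06125), a neurogenic factor, had 3795 in Activin explants against 35.2 in control explants, TCF15 (BL21142), a paraxial mesoderm factor in vertebrates, had 311 in Activin explants against 62.1 in control explants, and MYC (BL10926), a growth regulator, had 1791 in Activin explants against 371 in control explants. MXD1 (BL23346), which competes with MYC for its partner, fell to 862 in Activin explants against 7588 in control explants, and the circadian factor ARNTL (BL01005) fell to 77.5 in Activin explants against 557 in control explants. Of the zinc finger regulators 5 of 39 rose and 7 fell, a balance that was even under median scaling and that upper-quartile and total-count scaling turned. SNAI2 (BL20923), of the Snail family of cell migration and mesoderm, had 1298 in Activin explants against 61.7 in control explants. INSM1 (BL07935), a neurogenic zinc finger factor, and PRDM8 (BL16061) had 207 and 164 in Activin explants, with control means of 1.4 and 1.43, both under the floor. GATA2 fell to 477 in Activin explants against 13445 in control explants and KLF2 (BL10707), a Krüppel-like factor, to 768 in Activin explants against 9504 in control explants.

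In the AP-2, Grainyhead, p53 and Ets group 3 of 11 rose and 4 fell, which were equal under median and upper-quartile scaling and turned under total-count scaling. TFAP2D fell to 302 in Activin explants against 18797 in control explants, which is -5.96 ± 0.34 in the authors' deposited table. The Grainyhead rows, named for a factor of epidermal barrier formation, GRHL1 (BL22412) and GRHL1 (BL19738), fell to 2785 and 893 in Activin explants, against 22011 and 7258 in control explants. Both TP63 rows, named for an epidermal factor in vertebrates, rose: TP63 (BL04328) had 2129.7 in Activin explants against 438 in control explants and TP63 (BL19570) had 341 in Activin explants against 93.9 in control explants. Among Fox factors 5 rose and 5 fell of 22, against 7 and 5 under upper-quartile, 8 and 5 under total-count and 4 and 6 under ribosomal protein scaling. FOXN3 (BL04372) had 2360.1 in Activin explants against 374 in control explants, FOXD3 (BL05120) had 427 in Activin explants against 44.1 in control explants, and FOXJ1 (BL13340), the regulator of motile cilia, fell to 429 in Activin explants against 11879.6 in control explants. Of 12 T-box rows 1 rose and 1 fell, or 5 and 1 under total-count scaling. Both called rows were named TBX2: TBX2 (BL14067) had 5047 in Activin explants against 1673 in control explants and TBX2 (BL04677) had 131 in Activin explants against 639 in control explants. Neither Brachyury row was called. Of 21 bZIP rows 7 rose and 7 fell, which came to 8 and 5 under upper-quartile, 10 and 4 under total-count and 5 and 7 under ribosomal protein scaling, with ATF4 (BL12507), a stress response factor, at 1726 in Activin explants against 195 in control explants, and XBP1 (BL24731), the regulator of the secretory stress response, at 181 in Activin explants against 1484 in control explants. Beyond these regulators, 75 of 388 other zinc finger protein rows rose and 33 fell, more rises than falls under every scaling, with a median of 1.05.

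**Figure D4:**
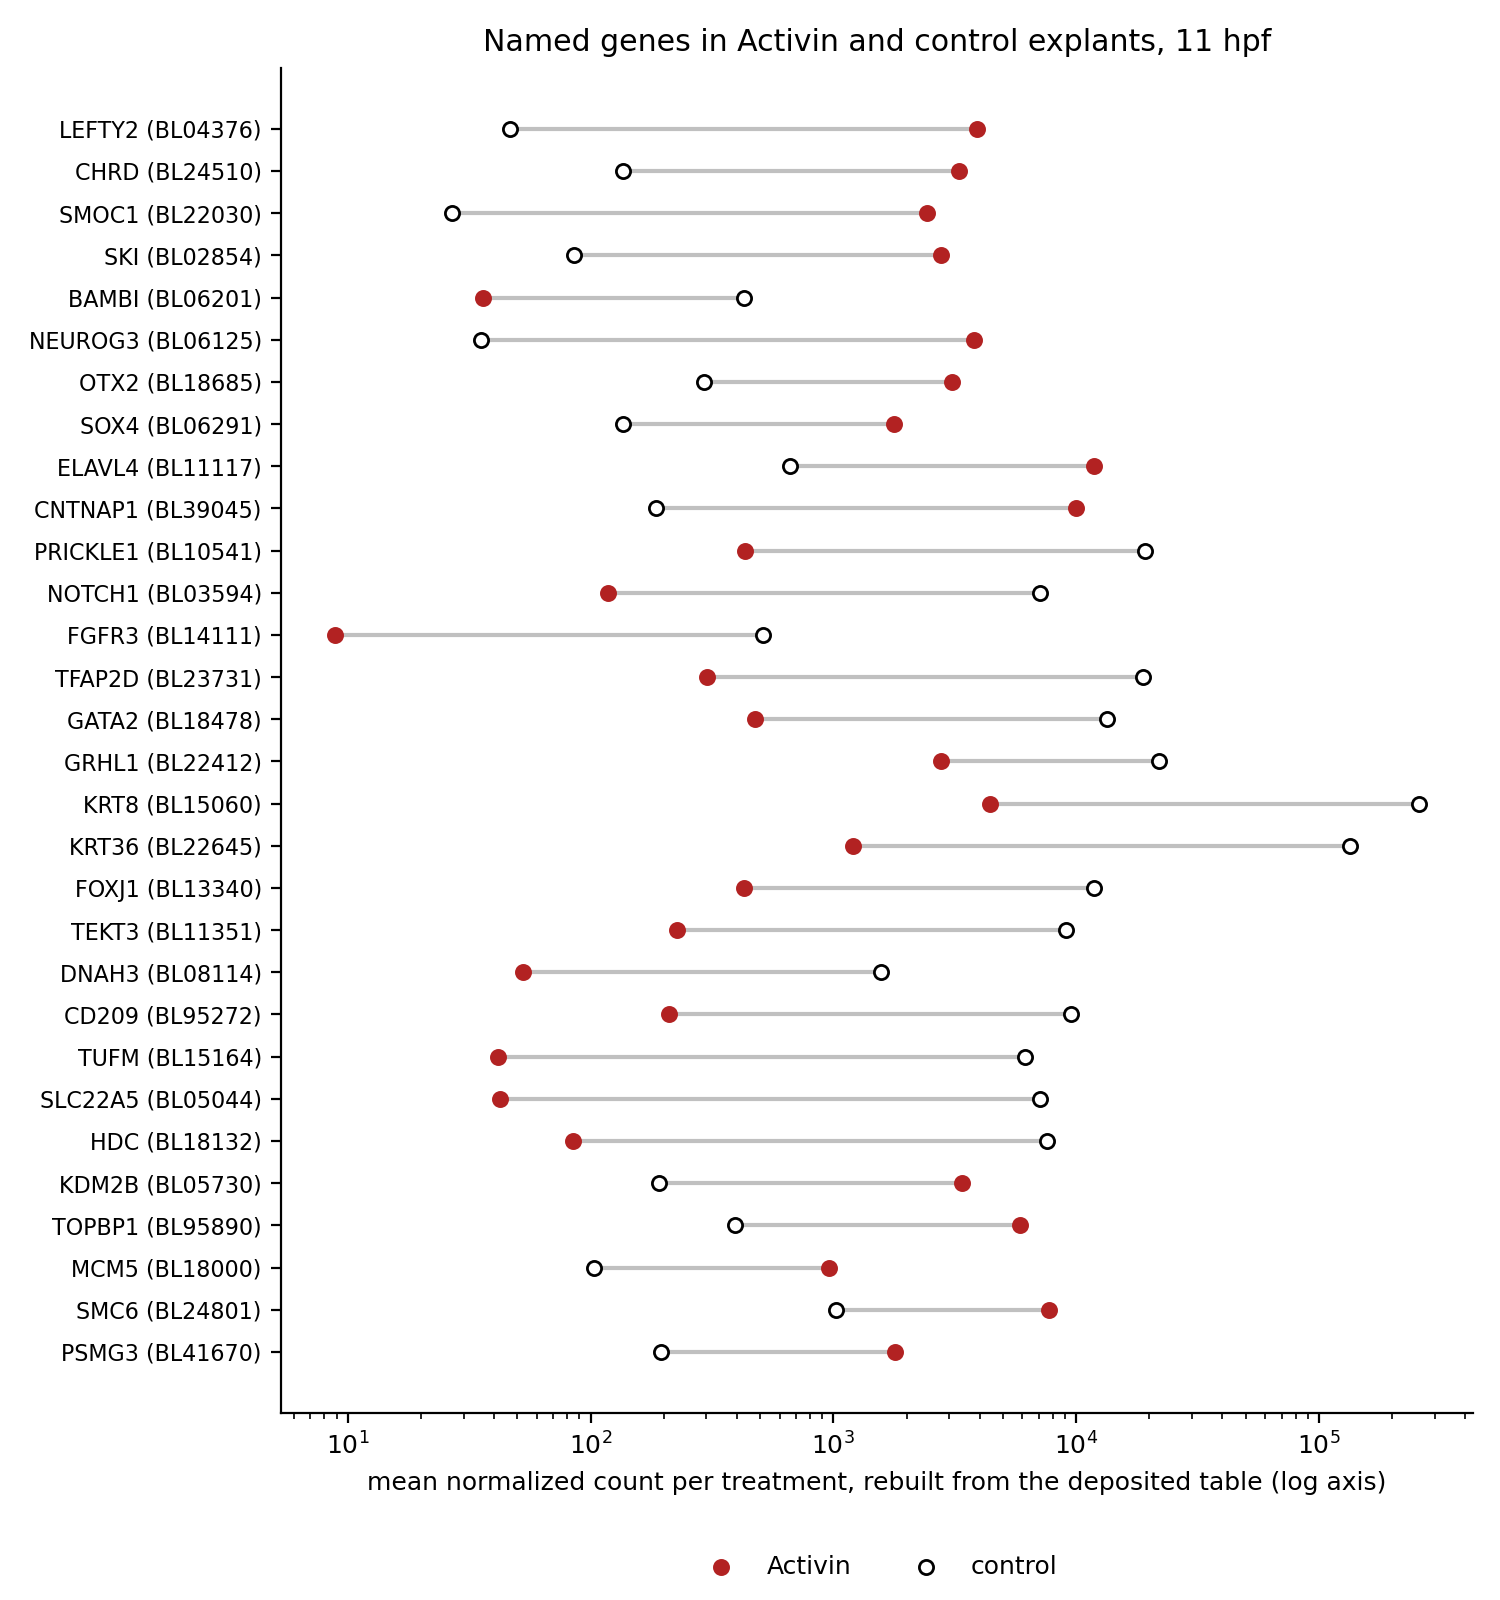
Rebuilt mean normalized count (log axis) of selected named rows in Activin (filled red) and control (open) explants, each pair joined by a line, with the row identifier in brackets. LEFTY2, CHRD, the neural rows shown (NEUROG3, OTX2, SOX4, ELAVL4 and CNTNAP1) and the genome maintenance genes shown lie to the right in Activin. BAMBI, PRICKLE1, NOTCH1, FGFR3, TUFM, HDC and the epidermal, ciliary and transport genes shown lie to the right in control. RAX, SIX3 and PAX2, which fell, and the CNTNAP1 row that fell are not among the selected rows.

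Epidermal structure and mucus genes fell more often than they rose. Keratin and intermediate filament rows fell in 10 of 11 and rose in 0, with a median of -5.30, and held 0.334% of counts in Activin and 3.64% in control explants. KRT84 (BL19675) had 4.64 in Activin explants against 299 in control explants. Mucins, lectins and scavenger receptors fell in 19 of 52 rows and rose in 2, with a median of -2.10, or -1.93 with means under 3 counts set to 3. Their share of counts was 0.108% in Activin and 1.12% in control explants, and both families kept their direction under every scaling. CD209 (BL95272), a C-type lectin, fell to 209 in Activin explants against 9526 in control explants and CD163 (BL13090), a scavenger receptor, to 56.8 in Activin explants against 2066 in control explants. The deepest falls among well-measured symbols included TGM1 (BL09044), a transglutaminase that crosslinks the skin barrier in mammals, with 2.7 in Activin explants and 1912 in control explants, and AHNAK (BL14054), a giant scaffold protein under the cell membrane, with 20.8 in Activin explants against 6059 in control explants, at -8.19 ± 0.42 in the authors' deposited table.

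Of 197 glycosyltransferase and sulfotransferase rows, enzymes that build glycans, 108 fell (54.8%, beside 24.6% of all rows) and 14 rose, under every scaling, with a median of -3.43, or -2.67 with means under 3 counts set to 3. The sialyltransferases ST8SIA4 (BL10842) and ST8SIA4 (BL17888) had 2.11 and 0.719 in Activin explants, against 393 and 109 in control explants, and B3GALT1 (BL01499), a galactosyltransferase, had 1.43 in Activin explants and 181 in control explants. Rows of 1 symbol often fell together. GAL3ST1, a sulfotransferase of glycolipids, had 27 rows, of which 19 fell and 0 rose, and ST8SIA2, a polysialyltransferase, had 15, of which 14 fell and 0 rose. The rises included enzymes of O-mannose glycans on dystroglycan, POMT2 (BL13501) at 472 in Activin explants against 102 in control explants and POMGNT1 (BL00091) at 663 in Activin explants against 167 in control explants, while another POMGNT1 row fell. ST6GALNAC5 (BL11866), another sialyltransferase, had 1513 in Activin explants against 188 in control explants. It was the 1 rise among 4 rows of that symbol, and the other 3 fell.

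Matrix families fell in shares on both sides of the 24.6% of all rows. Fibrillin, thrombospondin, tenascin and EGF-domain rows fell in 30 of 89 (33.7%) and rose in 8, and matrix proteases and inhibitors fell in 15 of 68 (22.1%) with 2 rises, with more falls than rises under every scaling. Collagens fell in 8 of 27 (29.6%) and rose in 2, also under every scaling. Integrins, laminins and basement membrane rows fell in 16 of 90 (17.8%) and rose in 7, a balance that total-count scaling turned. Laminin chains went opposite ways: LAMA5 (BL02579) had 647 in Activin explants against 65.1 in control explants, and LAMA3 (BL74498), a chain of epithelial laminin in mammals, had 401 in Activin explants against 7260.0 in control explants. NID2 (BL23755), a nidogen that links basement membrane networks, fell to 15.6 in Activin explants against 557 in control explants. The secreted protein NELL2 (BL00257) rose to 1318 in Activin explants against 79.2 in control explants. PRSS7 (BL16896), a serine protease, fell to 485 in Activin explants against 50433 in control explants. Cadherins, protocadherins and catenins rose in 8 of 43 and fell in 5, a balance that ribosomal protein scaling turned, with CDH23 (BL24267) at 237 in Activin explants against 49.7 in control explants and CELSR2 (BL03136), of the planar polarity cadherins, at 3209 in Activin explants against 7325 in control explants. Of 20 polarity and junction rows 4 rose and 4 fell, which came to 5 and 2 under median and upper-quartile, 7 and 1 under total-count and 3 and 6 under ribosomal protein scaling. The apical protein CRB1 (BL02538), Crumbs, had 987 in Activin explants against 145 in control explants, and the basolateral protein LLGL2 (BL00236) had 16027 in Activin explants against 41503 in control explants.

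Genes of the motile axoneme fell in most of their rows. Axonemal dyneins and their assembly factors fell in 28 of 38 rows and rose in 1, and radial spoke, central pair and related axonemal genes fell in 61 of 97 and rose in 3, both under every scaling, with medians of -2.17 and -1.87. DNAH3 (BL08114), a dynein heavy chain, fell to 52.8 in Activin explants against 1566 in control explants, DNAH5 (BL15852), another, to 137 in Activin explants against 2533 in control explants, and TEKT3 (BL11351), a tektin of ciliary microtubules, to 228 in Activin explants against 9091 in control explants. Intraflagellar transport, BBSome and transition zone rows, which primary and motile cilia share, fell in 18 of 75 (24.0%, close to the share over all rows) and rose in 9, and total-count scaling made rises the larger side. BBS7 (BL17780), a BBSome subunit, rose to 392 in Activin explants against 41.3 in control explants. Centriole and centrosome rows fell in 19 of 45 and rose in 7, also turned by total-count scaling. Among the 5 ciliogenesis regulators FOXJ1 and RFX3 (BL16916) fell, the second to 1449 in Activin explants against 7063 in control explants, RFX7 (BL08460) rose to 1365 in Activin explants against 211 in control explants, and RFX4 (BL16476), with 14.7 in Activin explants and 30.9 in control explants, and E2F5 (BL22102), with 1348 in Activin explants and 1365 in control explants, were not called. Total-count scaling made this group 2 and 2.

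Genes of the nervous system were counted by role, without a test between roles. Enzymes and transporters of transmitters fell in 36 of 72 rows (50.0%, beside 24.6% of all rows) and rose in 4. Voltage-gated and TRP channels fell in 40 of 110 and rose in 6, ligand-gated receptors fell in 17 of 50 and rose in 5, and G protein-coupled receptors fell in 25 of 64 and rose in 4, all under every scaling. HDC (BL18132), which makes histamine, fell to 84.7 in Activin explants against 7558 in control explants, SLC6A5 (BL13065), a glycine transporter, to 241 in Activin explants against 9033 in control explants, and CHRNB3 (BL10718), a nicotinic receptor subunit, to 46 in Activin explants against 4641 in control explants. The serotonin receptor HTR1B (BL23497) fell to 9.44 in Activin explants against 795 in control explants. Rises included SLC6A9 (BL06534), a second glycine transporter, at 1892 in Activin explants against 222 in control explants, TRPM1 (BL11904), a TRP channel, at 259.6 in Activin explants against 3.18 in control explants, and GPR161 (BL22883), a ciliary receptor that acts on Hedgehog signalling, at 461 in Activin explants against 53.1 in control explants. Axon guidance rows rose in 11 and fell in 18 of 60, a balance that total-count scaling turned. CNTNAP1 (BL39045), a neuron-glia adhesion protein, had 9991 in Activin explants against 186 in control explants, at 5.75 ± 0.38 in the authors' deposited table, and SEMA6A (BL01880), a semaphorin, had 750.2 in Activin explants against 31.9 in control explants. Of the 3 CNTNAP1 rows 1 rose and 1 fell. Contactin rows led the falls, CNTN5 (BL22043) at 18 in Activin explants against 2352 in control explants and CNTN3 (BL06071) at 73 in Activin explants against 1932 in control explants. Of the RNA-binding and neuronal fate factors 3 of 11 rose and 5 fell, turned by upper-quartile and total-count scaling, with ELAVL4 (BL11117), a marker of differentiating neurons in vertebrates, at 11809 in Activin explants against 665 in control explants. Synaptic vesicle and exocytosis rows fell in 10 of 46 (21.7%, near the share of all rows) and rose in 3, turned by total-count scaling, and the synaptotagmin SYT15 (BL95224) fell to 310.5 in Activin explants against 20747 in control explants.

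Of 275 solute carrier rows 121 fell (44.0%, beside 24.6% of all rows) and 22 rose, and of 191 cytochrome P450 and conjugating enzyme rows 72 fell (37.7%) and 4 rose, both under every scaling. Solute carriers held 0.889% of counts in Activin and 1.75% in control explants. SLC22A5 (BL05044), named for a carnitine transporter, fell to 42.6 in Activin explants against 7095 in control explants, and SLC15A2 (BL06171), a peptide transporter, to 15.4 in Activin explants against 1241 in control explants. CYP2U1, a cytochrome P450 symbol shared by 50 rows, had 27 falls and 0 rises. A GSTZ1 row, named for a glutathione transferase, fell, GSTZ1 (BL95787) to 289 in Activin explants against 15961 in control explants, another rose, GSTZ1 (BL04084) to 1476 in Activin explants against 663 in control explants, and the other one was not called. ABC transporters and ion pumps fell in 19 of 72 (26.4%, near the 24.6% of all rows) and rose in 6, a balance that total-count scaling turned. The ABCC4 rows, named for an efflux pump, went both ways, among them ABCC4 (BL20592) at 2086 in Activin explants against 82.3 in control explants and ABCC4 (BL19550) at 749 in Activin explants against 14213 in control explants.

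Of respiratory chain rows 22.4% were called and of TCA cycle rows 32.0%, beside 36.6% of all rows, a difference that was not tested. Glycolysis and gluconeogenesis rose in 3 and fell in 2 of 21 rows, the TCA cycle rose in 6 and fell in 2 of 25, and the respiratory chain rose in 13 and fell in 2 of 67. Ribosomal protein scaling turned the TCA cycle and the respiratory chain and left glycolysis with 2 and 2, and total-count scaling gave the respiratory chain 44 higher and 1 lower. IDH2 (BL20705), mitochondrial isocitrate dehydrogenase, rose to 3526 in Activin explants against 1187 in control explants, while IDH1 (BL07436), the cytosolic form, fell to 314 in Activin explants against 5793 in control explants. CYCS (BL01977), cytochrome c, fell to 20.4 in Activin explants against 1428 in control explants. The gluconeogenic enzymes FBP1 (BL03893) and PCK2 (BL07377) fell to 398 and 3281 in Activin explants, against 1859 and 9553 in control explants. Lipid and sterol rows rose in 10 and fell in 18 of 87 (20.7%, beside 24.6% of all rows), turned by upper-quartile and total-count scaling. Phospholipase rows led the falls, PLA2G1B (BL06591) to 51 in Activin explants against 2458 in control explants.

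Of 85 rows for traffic between the endoplasmic reticulum and the Golgi 28 fell (32.9%, beside 24.6% of all rows) and 2 rose, and total-count scaling made rises the larger side. TMED6 (BL95536), a cargo receptor, fell to 426 in Activin explants against 10453 in control explants, TMED6 (BL28040), a second row of that symbol, to 22.3 in Activin explants against 1397 in control explants, and SEC22A (BL00290), a SNARE protein, to 109 in Activin explants against 1197 in control explants. Lysosome and autophagy rows fell in 18 of 98 (18.4%, under the share of all rows) and rose in 6, turned by upper-quartile and total-count scaling. The falls were led by lysosomal proteins and the rises by autophagy genes. ARSB (BL18781), a lysosomal sulfatase, fell to 261 in Activin explants against 7723 in control explants, and ULK2 (BL14474), a kinase that starts autophagy, rose to 1728 in Activin explants against 478 in control explants. Among chaperones 14 rose and 24 fell of 102 (23.5%, near the share of all rows), turned by median, upper-quartile and total-count scaling, with PPIB (BL95570), an endoplasmic reticulum proline isomerase, at 513 in Activin explants against 7077 in control explants.

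Genes of genome maintenance rose more often than they fell. DNA repair rows rose in 33 of 93 (35.5%, beside 12.0% of all rows) and fell in 3, and DNA replication rows rose in 22 of 58 (37.9%) and fell in 4, both under every scaling, with medians of 1.36 and 1.23. DNA repair genes held 0.582% of counts in Activin and 0.143% in control explants. TOPBP1 (BL95890), which activates the replication checkpoint, had 5872 in Activin explants against 393 in control explants, at 3.90 ± 0.34 in the authors' deposited table. The replicative helicase subunits MCM5 (BL18000) and MCM6 (BL07243) had 958 and 1137 in Activin explants, against 103 and 138 in control explants. CHEK1 (BL19614), a checkpoint kinase, had 130.0 in Activin explants against 8.25 in control explants, and WRN (BL12559), a helicase of DNA repair, had 332 in Activin explants against 24.3 in control explants. Against the trend RRM2 (BL04678), the small subunit of ribonucleotide reductase, fell to 10657 in Activin explants against 35830.0 in control explants, and DBF4 (BL06625), which activates replication origins, fell to 1576 in Activin explants against 4233 in control explants. Cyclin, kinase and mitosis rows rose in 22 and fell in 12 of 103, a balance that ribosomal protein scaling turned. Of these, SMC6 (BL24801), a chromosome maintenance protein, rose to 7694 in Activin explants against 1026 in control explants, and CDKN3 (BL23110), a cyclin-dependent kinase phosphatase, fell to 346 in Activin explants against 2265 in control explants.

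Chromatin modifiers rose in 31 of 106 rows and fell in 12 under every scaling. KDM2B (BL05730), a histone demethylase that recruits Polycomb, had 3400.2 in Activin explants against 192 in control explants, SUZ12 (BL23838), a Polycomb subunit, had 1343 in Activin explants against 208 in control explants, and HDAC8 (BL11384), a histone deacetylase, had 649 in Activin explants against 77.6 in control explants. PRMT8 (BL16981), an arginine methyltransferase, fell to 1523 in Activin explants against 56458 in control explants. Germline and piRNA genes rose in 7 of 27 and fell in 1 under every scaling, with both TDRD1 rows, named for a Tudor protein of germ granules, higher: TDRD1 (BL06350) had 626 in Activin explants against 102 in control explants and TDRD1 (BL04410) had 180.0 in Activin explants against 38.6 in control explants. Nucleolar ribosome biogenesis and RNA polymerase rows rose in 19 of 92 and fell in 2, with rises the larger side under every scaling. Mitochondrial ribosomal proteins rose in 6 of 64 (9.38%, under the 12.0% of all rows) and fell in 0, and cytosolic ones in 5 of 66 (7.58%) with 1 fall. The cytosolic ones had a median log2 fold change of 0.34, and their balance turned under the scaling set on them. Spliceosome rows rose in 14 (13.5%, near the 12.0% of all rows) and fell in 8 of 104, turned by ribosomal protein scaling. Among them SNW1 (BL95416) had 1252 in Activin explants against 68.3 in control explants and SRRM1 (BL23258) had 44.5 in Activin explants against 5146 in control explants. Translation factors and tRNA synthetases rose in 20 and fell in 17 of 108, also turned by that scaling. Initiation factors led the rises, EIF4E3 (BL08716) at 1045 in Activin explants against 172 in control explants and EIF3B (BL03160) at 1317 in Activin explants against 281 in control explants. The rows named TUFM, a mitochondrial elongation factor, led the falls, TUFM (BL37493) at 222 in Activin explants against 19289 in control explants, TUFM (BL95063) at 27.6 in Activin explants against 6442 in control explants and TUFM (BL15164) at 41.7 in Activin explants against 6149.9 in control explants.

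Proteasome genes rose in 18 of 44 rows and fell in 1 under every scaling, and held 0.482% of counts in Activin and 0.133% in control explants. PSMG3 (BL41670), a proteasome assembly chaperone, had 1790.5 in Activin explants against 196 in control explants, and PSME3 (BL16973), an activator subunit, fell to 342 in Activin explants against 723 in control explants. Of 365 ubiquitin ligase and deubiquitinase rows 67 rose and 66 fell, a margin that ribosomal protein scaling turned. KLHL24 (BL05758), a substrate adaptor, rose to 6045 in Activin explants against 303 in control explants, and USP48 (BL04003), a deubiquitinase, to 472 in Activin explants against 23 in control explants. FBXW7 (BL15161), a subunit that targets cyclin E and MYC for degradation in mammals, fell to 5.56 in Activin explants against 429 in control explants. It was the 1 fall among 6 rows of that symbol, of which 2 rose.

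Cytoskeleton and intracellular signalling rows went both ways, and upper-quartile and total-count scaling made rises the larger side in the actin, sarcomere, tubulin, MAP kinase and apoptosis families. Under median scaling the actin, sarcomere and apoptosis families had equal sides. Actin rows and regulators rose in 5 and fell in 12 of 52. Rows named ACTB, cytoplasmic actin, differed, ACTB (BL10072) at 9913 in Activin explants against 1886 in control explants, ACTB (BL15834) at 16.1 in Activin explants against 588 in control explants and ACTB (BL06089) at 7.04 in Activin explants against 455 in control explants. Sarcomere and myosin rows rose in 6 and fell in 9 of 53, with CKM (BL09597), creatine kinase, at 1688 in Activin explants against 173 in control explants, and TPM1 (BL05296), tropomyosin, at 298 in Activin explants against 10463 in control explants. Tubulins and their modifiers rose in 4 and fell in 14 of 52, led by TUBG1 (BL00196), which nucleates microtubules, at 145 in Activin explants against 23 in control explants, and TTLL8 (BL19192), a glycylase of ciliary tubulin, at 84.3 in Activin explants against 1074 in control explants. MAP kinase, cAMP, calcium and lipid signalling rows rose in 22 and fell in 36 of 128, with CALML3 (BL95419), a calmodulin-like protein of epithelia in mammals, at 178 in Activin explants against 8915 in control explants. Apoptosis rows rose in 4 and fell in 7 of 47. PDCD4 (BL24436), an inhibitor of translation, rose to 2993 in Activin explants against 355 in control explants. The apoptosome rows APAF1 (BL03462) and APAF1 (BL15582) fell to 951 and 18.8 in Activin explants, against 14301 and 926 in control explants. Antioxidant and stress rows rose in 4 and fell in 13 of 51, a balance that total-count scaling alone turned. NFE2L2 (BL11654), the regulator of the antioxidant response, rose to 2960.4 in Activin explants against 642 in control explants, whereas GCLC (BL23864), which makes glutathione, fell to 70.8 in Activin explants against 2407 in control explants. Of 71 immune and TNF/Toll rows 6 rose and 6 fell, which came to 11 and 6 under upper-quartile, 19 and 3 under total-count and 5 and 10 under ribosomal protein scaling.

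Symbols were also grouped by a shared stem of letters, a grouping made after the values were seen, which gave 85 stems with at least 15 rows. Falls outnumbered rises in 52 stems and rises outnumbered falls in 30. PKHD1L1, a large membrane protein of the fibrocystin family, had 24 rows, of which 21 fell and 0 rose. DNAH rows, axonemal dyneins, fell in 17 of 20, GGT rows, gamma-glutamyl transferases, in 14 of 17, SLCO rows, organic anion carriers, in 13 of 17, JMJD rows in 15 of 20 and FUT rows, fucosyltransferases, in 14 of 20. The stems with the greatest shares of rises began with PARP and NUP. PARP rows rose in 7 of 16, NUP rows, of the nuclear pore, in 8 of 20 with 0 falls, MED rows, of the Mediator complex, in 10 of 29 with 0 falls, USP rows, deubiquitinases, in 12 of 37 with 2 falls, and DDX rows, RNA helicases, in 10 of 31 with 0 falls.

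Many symbols stood for more than 1 row. Reads shared between near-identical copies could be split between such rows, so the value of a single copy is uncertain. Of 7680 symbols 1413 had at least 2 rows, and 446 had at least 2 called rows. In 272 of these all called rows fell, in 54 all rose, and in 120 they went both ways. SLC22A5 had the widest spread among symbols with at least 3 rows called both ways. Of its 12 rows 2 rose and 4 fell, SLC22A5 (BL18238) rising to 145 in Activin explants against 3.45 in control explants and BL05044 falling as given above. TGM1 had 6 rows, of which TGM1 (BL95443) rose to 281 in Activin explants against 45.4 in control explants and TGM1 (BL95095) fell to 485 in Activin explants against 2546 in control explants, beside BL09044. FOXB1, a forkhead factor of neural tube in vertebrates, had 4 rows, of which FOXB1 (BL06232) rose to 909 in Activin explants against 12 in control explants and FOXB1 (BL22763) fell to 4234 in Activin explants against 16017 in control explants. Of 7 HSD11B1 rows, named for a steroid dehydrogenase, 5 fell, HSD11B1 (BL05173) to 468 in Activin explants against 10276 in control explants, and 1 rose, HSD11B1 (BL56248), with 21.9 in Activin explants and 0.66 in control explants. Of 43 KLHL24 rows 7 rose and 1 fell, and of 21 TRIM2 rows 2 rose and 12 fell.

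The table held 2265 rows whose identifier is absent from the 19 hpf table, and 13528 in both. The absent rows had low counts. Their median mean was 9.76 normalized counts over the libraries at 11 hpf, and 80.8% lay under 20. Of these rows 525 were called (23.2%), 44 higher (1.94%) and 481 lower (21.2%), so 91.6% of calls were falls, against 64.8% among rows in both tables. The 481 that fell had median means of 1.27 in Activin explants and 31.5 in control explants, and in 339 of them (70.5%) the Activin mean was under the floor. The count of calls fell to 280 at an adjusted p below 0.01 and to 222 when only rows with a mean of at least 20 counts were kept. Absence from a table can come from a filter on low values, whose rule is not given in the sources used here, so absence is not a measured level at 19 hpf.

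At matched counts the share of rows that fell was greater among the absent rows. From 10 to 20 normalized counts 25.9% of absent rows and 10.4% of rows in both tables fell. From 20 to 50 it was 38.1% of absent rows and 15.2% of the others, and from 50 to 100 it was 63.1% of absent rows and 24.1% of the others. Rises from 50 to 100 counts made up 3.08% of absent rows, 2 of 65, and 14.9% of rows in both tables. From 20 to 50 counts rises made up 4.72% of absent rows and 6.84% of the others. From 10 to 20 counts they made up 2.98% of absent rows and 2.25% of the others. No test of these differences was made. Of the 30 absent rows with a mean of at least 100 counts, 22 fell and 0 rose.

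**Figure D5:**
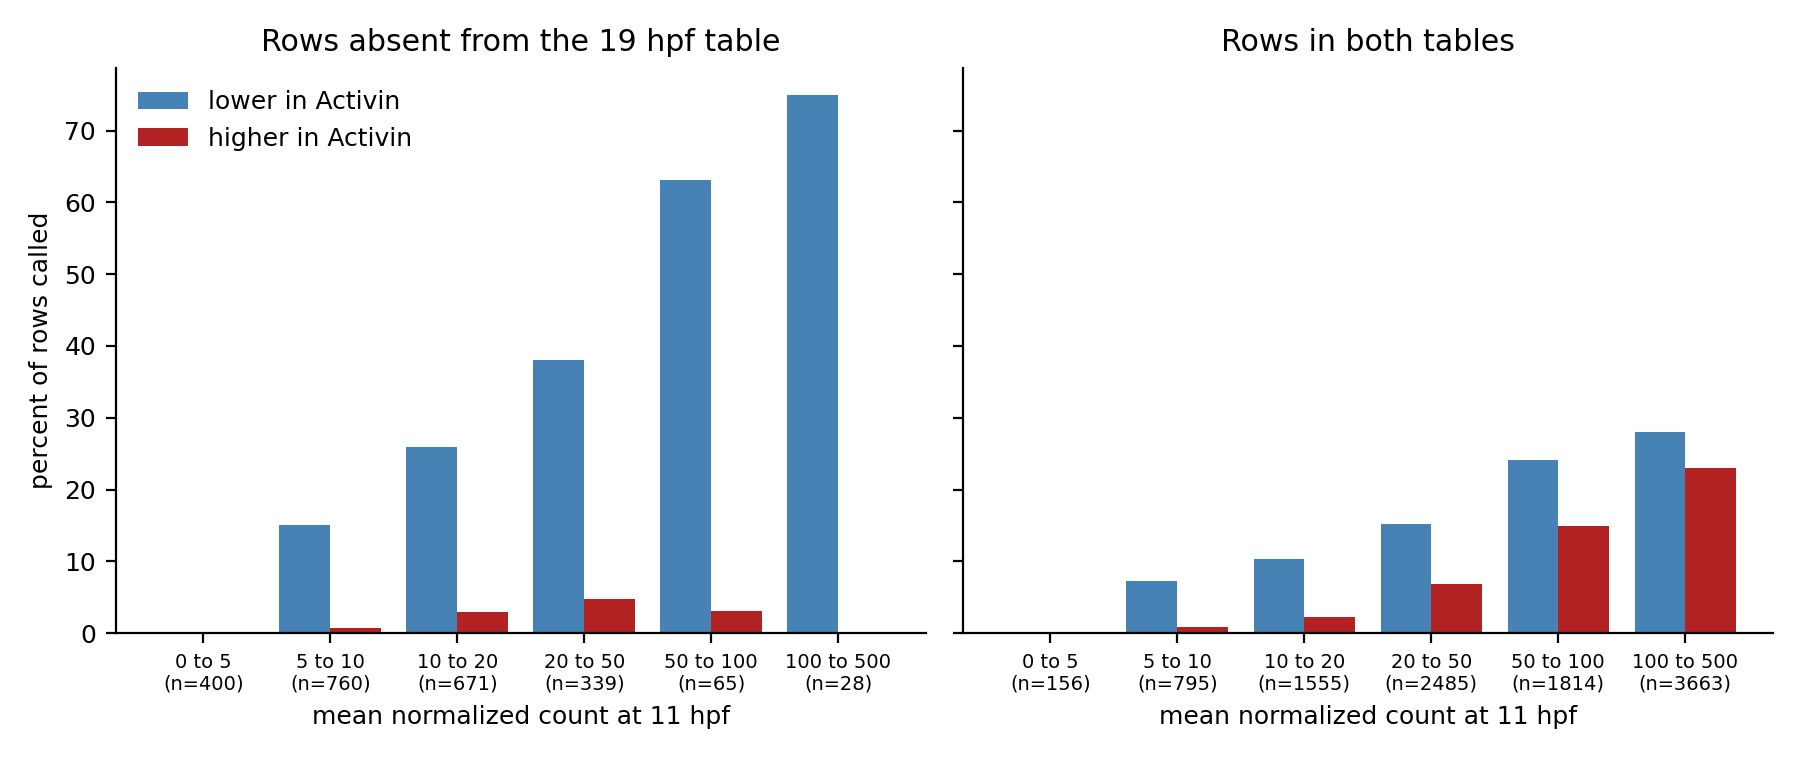
Percent of rows called lower (blue) or higher (red) in Activin explants at 11 hpf, by mean normalized count, for rows absent from the 19 hpf table (left) and rows in both tables (right), with the number of rows under each bin. From 20 to 50 counts 38.1% of the absent rows and 15.2% of the others were called lower.

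Absence followed the kind of label. It covered 8.69% of rows with a symbol, 23.8% of rows with a Hypp label and 33.3% of rows with no label. Among families it was greatest for mucins, lectins and scavenger receptors at 44.2% of rows, ligand-gated receptors at 42.0%, histones at 36.8% and collagens at 33.3%, while it was 0% for keratins, axonemal dyneins, Sox factors and T-box factors. Named rows that fell included CD82 (BL01648), a tetraspanin, at 89.7 in Activin explants against 730.1 in control explants, ADAMTS19 (BL97231), a secreted metalloprotease, at 3.13 in Activin explants against 373 in control explants, TRPC5 (BL00383), a TRP channel, at 7.56 in Activin explants against 331 in control explants, and FN1 (BL05172), named for fibronectin, at 29.8 in Activin explants against 254 in control explants. In the authors' deposited table ADAMTS19 had a log2 fold change of -6.90 ± 0.81 and TRPC5 one of -5.45 ± 0.58. CD82 and FN1 were named after their values were seen. Other falls ended under the floor, as for PEX2 (BL19621), a peroxisome assembly factor, with 1.72 in Activin explants and 141 in control explants, and ST8SIA2 (BL12957), with 0.357 in Activin explants and 70.2 in control explants. Rises were few. DHCR7 (BL71162), the last enzyme of cholesterol synthesis, had 134 in Activin explants against 24.3 in control explants, and GRIA2 (BL07907), an AMPA-type glutamate receptor subunit, had 56.7 in Activin explants against 5.11 in control explants. SQLE (BL04488), an earlier enzyme of sterol synthesis, had 50.6 in Activin explants and 2.82 in control explants, and CHRNA9 (BL20543), a nicotinic receptor subunit, had 46.7 in Activin explants and 1.63 in control explants, both with control means under the floor.

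Rows with no symbol changed as well. Hypp13112 (BL10768) had 1803 in Activin explants against 18.5 in control explants, with a log2 fold change of 6.61 ± 1.57 in the authors' deposited table, and the unlabelled row BL83847 had 291 in Activin explants and 1.38 in control explants. Hypp5262 (BL29509) had 0.716 in Activin explants and 316 in control explants and Hypp5600 (BL22492) had 1.1 in Activin explants and 367 in control explants, both with Activin means under the floor. In all, rows without a symbol held 13.9% of counts in Activin and 19.0% in control explants.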

How the data were processed

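RNA of 2 Activin and 2 control libraries of explants at 11 hpf was sequenced from poly(A)-selected RNA, per the labels' protocols. HISAT2, featureCounts and edgeR were used, per the submitters' processing notes, while their versions and settings, the genome build and the gene models were not given in the sources used here. Columns of the deposited table have DESeq2's names, although those notes do not mention DESeq2, so the source of the final values is uncertain.

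The mean column deposited by the authors is a signal of normalized counts averaged over libraries. The authors deposited log2 fold changes with standard errors. The test column deposited by the authors is a score, the Wald statistic, and it equalled the fold change over its error. The p-value columns deposited by the authors are raw and adjusted, and the second equalled a Benjamini-Hochberg adjustment over the 15793 rows. The p-values set the difference between treatments against an error modelled by the authors from 2 libraries of mixed explants in each group. Values per library, and so depth, were not at hand, and the planned edgeR quasi-likelihood test, DESeq2 and leaving out replicates were not run.

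Computed here with Python 3.11.15, pandas 2.3.3 and scipy 1.17.1: control mean as 2 times the mean count over 1 plus the linear fold change, Activin mean as that times the fold change (equal weight assumed), counts of calls at an adjusted p below 0.05, and Wald tests recomputed after recentring, which were tested on simulated data. A fold was not read where the lower mean was under 3 normalized counts.

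Members, families and lists were chosen with earlier results of these data known. Families are symbol patterns matched in full. Named genes were, per family, up to 3 called rows per direction of greatest change with a mean of at least 50 counts, and every row of families of up to 6 rows. Others were the 15 greatest rises and falls at a mean of 100 or more, the 8 greatest each way among rows absent at 19 hpf, 6 symbols called both ways, at most 2 unnamed rows per direction, and LEFTY2, CHRD, GSC, NODAL, SOX2, T, KRT8 and FOXJ1. NODAL was not found under that symbol. Some rows and 1 family that the rule takes in are not reported here. Sequences and coordinates were not used here.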

Additional observations from a re-analysis of the deposited data

How the results depend on the processing

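The total of 5773 calls stayed within 1.5 times under all 7 alternatives, from 4407 at an adjusted p below 0.01 to 7436 under total-count scaling. The number higher, 1893, came to 3036 under upper-quartile and 4820 under total-count scaling, and the number lower, 3880, stayed between 2616 and 4595. Among rows absent from the 19 hpf table, the 525 calls came to 280 at an adjusted p below 0.01 and 222 with a mean of at least 20 counts. The 44 higher among them came to 15 and 18 under those settings and to 149 under total-count scaling, and the 481 lower to 265, 204 and 298. The 44 families with more falls than rises came to 27 under upper-quartile and 17 under total-count scaling. Of the family counts 798 stayed within 1.5 times and 252 moved, 100 of these under total-count scaling. Over 492 rows tested for naming, 3253 values stayed on their side of the threshold, 144 lost their call and 20 gained one. Under total-count scaling 8 rows that were called with or without that scaling changed sign on the log2 scale: PRKCI 0.16, VAT1 0.21, SYNCRIP 0.82, SCRIB 0.019, RPS3A 0.044, H2AFV 0.11, E2F5 0.96 and DAZAP1 0.84. Sign changes of rows called in neither case were not counted. The shift in centre that each scaling makes is the only change in these alternatives. No paired analysis was possible because the table holds no values per library, and for the same reason leaving out replicates, edgeR with TMM and DESeq2 were not run. Low counts limit precision: 17.5% of rows from 10 to 20 normalized counts were called, against 63.2% at 5000 or more.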

Other observations

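A few well-measured rows had standard errors far above those of rows with like counts, a comparison added after the values were seen. Of 6753 rows with a mean of at least 100 normalized counts, 12 had at least 2 times the median standard error of rows of like level, and 6 had at least 4 times. In 5 of the 12 the lower treatment mean was under 3 counts. FOXB1 (BL06232), with 909 normalized counts in Activin explants and 11.96 in control explants, had a standard error of 1.70 against a median of 0.40 for its level. ERCC2 (BL11425), a helicase of transcription and DNA repair, had 727 in Activin and 58.3 in control explants and a log2 fold change of 3.64 ± 1.91, and was not called. Hypp13112 (BL10768), called higher, had a standard error of 1.57 against 0.36 for its level. Values per library, which would show how each pair of libraries differed, were not used here.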
